A study of Mus musculus with 2 samples.

Results

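The cells described here are macrophages of day 5 mouse skin wounds with a high content of MHC class II RNA, 910 of the 23089 cells in the deposited single-cell data and 910 of the 6070 cells that passed a macrophage gate. Of these class II high macrophages, 372 came from the library labelled PBS and 538 from the library labelled DTX. A cell was kept from 500 detected genes upwards and up to 6% mitochondrial RNA, which left 8326 cells in the PBS and 7188 in the DTX library. RNA was counted by unique molecular identifiers (UMIs), which number the captured RNA molecules. The gate asked for at least 5 UMIs of *Lyz2*, at least 2 UMIs over *Fcgr1*, *Csf1r*, *Adgre1* and *Msr1*, little RNA of collagen and basal keratin genes, and no UMI of *Ccr7*. A cell was then called class II high when *H2-Aa*, *H2-Ab1*, *H2-Eb1* and *Cd74* together held at least 1.5% of its UMIs. Cells with C1q RNA at 0.5% of UMIs or more, with at least 5 UMIs of *Arg1* or 3 of *Ly6c2*, with any UMI of *Cd209a*, or with UMIs of both *Cbr2* and *Folr2* were left out. The cells were thus chosen by their measured class II share and by the other RNAs named, so the level of these genes and every contrast of the chosen cells with other cells is a description.

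Both libraries came from C57BL/6 mice aged 7 to 9 weeks that were labelled *Mrc1-DTR*. In this line the *Mrc1* promoter drives the diphtheria toxin receptor, so the toxin is aimed at cells that transcribe *Mrc1*, the gene of the mannose receptor CD206. One group received PBS and the other diphtheria toxin (DTX), and live cells of 3 pooled mice per group were sorted from wound tissue taken with a 10 mm punch. The methods describe the control animals differently, as wild-type mice that also received the toxin. The study's account of its cells gives the larger number to *Mrc1-DTR* wounds, whereas here the larger number belongs to the library labelled PBS. The labels were followed. By the methods there were 2 technical but no biological replicates. The sources used here do not say if the technical ones were merged into the deposited libraries. With 1 library per condition there is no test between conditions. All intervals are exact 95% intervals that cover counting error only.

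MHC class II molecules are pairs of an alpha and a beta chain that present peptides from the endosomes to CD4 T cells. The invariant chain, encoded by *Cd74*, guards the empty groove until cathepsins cut it, and H2-DM then exchanges its last fragment for a peptide. Transcription of these genes depends on the coactivator CIITA and on factors that bind a shared promoter module of X and Y boxes. In skin, class II is carried by Langerhans cells, dermal dendritic cells and a part of the macrophages, many of which derive from monocytes.

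The module is shown for the alpha chain *H2-Aa* and the beta chain *H2-Eb1*, which are both part of the rule, because the class II RNA that defines these cells is transcribed from such promoters. Each line holds the 150 bases before the RefSeq start of transcription, 5′ to 3′ on the strand of the gene, on GRCm38.p6 (mm10). For *H2-Aa* this is chr17:34287824-34287973 on the minus strand and for *H2-Eb1* chr17:34305717-34305866 on the plus strand. Capitals mark the searched motifs, TNGNAAC as the start of the X box and GATTGG as the core of the Y box.
*H2-Aa*: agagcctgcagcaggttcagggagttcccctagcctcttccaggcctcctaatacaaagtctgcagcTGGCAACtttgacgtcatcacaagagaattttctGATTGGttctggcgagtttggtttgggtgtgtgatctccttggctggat
*H2-Eb1*: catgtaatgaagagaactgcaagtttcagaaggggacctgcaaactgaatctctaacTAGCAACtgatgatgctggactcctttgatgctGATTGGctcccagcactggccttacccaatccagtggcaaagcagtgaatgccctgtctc
The motifs lay 27 bases apart in *H2-Aa* and 26 bases apart in *H2-Eb1*. The ordered pair, with 18 to 32 bases between the motifs on the strand of the gene, occurred in 22 of 32851 RefSeq promoter windows of this length (0.0670%). It occurred in 4 of the 8 class II molecule genes found among the windows searched, *H2-Aa*, *H2-Eb1*, *H2-DMb1* and *H2-Ob*. The range of bases was set after values were seen, and genes are counted here but windows over the whole set searched. The contrast is therefore a description. GATTGG alone, on either strand, stood in 7 of these 8 genes and in 10.9% of all windows. The windows of *Slamf7*, *Mgl2*, *Cd207* and *Mrc1* held neither the pair nor GATTGG. Of the 23 symbols on the class II list, 18 were found among the windows searched, and *H2-Ab1*, *Cd74*, *Ciita* and *Rfxap* were not. The windows searched need not be all those of RefSeq. The absence of *Cd74* or another symbol here therefore does not show that RefSeq lacks it. *March1* was found under its newer symbol *Marchf1*.

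The macrophage label was checked on a lineage gene outside the rule, against T and NK cells only. This comparison does not tell macrophages from dendritic cells. *Cd68*, a lysosomal glycoprotein of macrophages, was detected in 85.2% of class II high macrophages in the PBS and 86.4% in the DTX library. *Cd68* was detected in 12.0% and 10.3% of the T and NK cells, which serve as the reference for free RNA and were chosen without a UMI of *Csf1r* and the other 3 receptor genes of the gate. *Cd3e*, a chain of the T cell receptor complex, was detected in 0 and 0.558% of class II high macrophages, and the B cell genes *Cd79a*, *Ms4a1* and *Jchain* had no UMI. *Ighm*, the heavy chain of IgM, was detected in 17.2% and 13.9% of class II high macrophages and in 32.9% and 31.03% of T and NK cells. The dendritic receptor *Flt3* was detected in 3.23% and 7.43% of class II high macrophages and in 0 and 0.690% of T and NK cells. The dendritic factor *Zbtb46* was detected in 0.269% and 2.42% of class II high macrophages and in 7.41% and 10.3% of T and NK cells. As its share was higher in T and NK cells, they do not give a level of free RNA for this gene. *Itgax*, the integrin CD11c of dendritic cells and some macrophages, was detected in 24.5% and 19.0% of class II high macrophages and in 12.0% and 7.59% of T and NK cells. Genes of type 2 dendritic cells were high beside class II low macrophages, the cells of the same gate under the class II threshold. Of the measured genes of this list, 3 of 3 in the PBS (*Mgl2*, *Clec10a* and *Tnip3*) and 4 of 4 in the DTX library (*Klrd1* as well) were past 2-fold higher, against 3.83% and 1.16% of all genes. Their median log2 ratios were 2.32 and 2.00. The DTX median was 0.98 in cells of at most 2000 genes and 0.99 with every cell thinned to 2000 UMIs. After this thinning, with the rule applied anew to the thinned cells, *Tnip3* was under 2-fold in both libraries, at 0.73 and 0.92. Of the conventional dendritic cell genes none of 2 was past 2-fold in the PBS library, and 3 of 5 (*Flt3*, *Kit* and *Irf4*) were higher in the DTX library. The part of dendritic cells among the chosen cells was not tested. A few cells carried markers of Langerhans cells. The lectin langerin, *Cd207*, was detected in 23 and 24 cells, and the 8 cells of the PBS and 6 of the DTX library with at least 10 UMIs held 90.7% and 92.6% of its UMIs. *Epcam* was also detected in 10 of these 23 and 5 of these 24 cells. Results with the *Cd207* or *Epcam* cells left out are given for some genes, lists and counts.

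Class II high macrophages were a larger share of the gated macrophages in the PBS library and a larger share of all kept cells in the DTX library. They made up 23.9% (21.8% to 26.1%) of 1554 gated cells in the PBS and 11.9% (11.0% to 12.9%) of 4516 in the DTX library. Of all kept cells they were 4.47% (4.03% to 4.93%) and 7.48% (6.89% to 8.12%), and the gate itself held 18.7% and 62.8% of kept cells. In cells of at most 2000 genes, the upper limit that the methods give, the order of the second share turned, with 10.3% of kept cells in the PBS and 7.76% in the DTX library. The live-cell sort, the filters and the gate can set these shares, which also depend on each other within a library.

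The class II content of the whole gate differed in the same direction. In the PBS library 75.7% (73.5% to 77.9%) of gated cells had class II RNA at 1.5% or more of UMIs, against 37.9% (36.4% to 39.3%) in the DTX library. The other limits of the rule then left 31.6% and 31.5% of those cells as members, although different limits acted. The C1q limit applied to 46.6% of these class II rich cells in the PBS and 24.0% in the DTX library, and the *Ly6c2* limit to 22.9% and 44.4%. *Ly6c2* marks monocytes that have recently entered tissue, and C1q chains mark macrophages that clear dying cells. The *Arg1* limit applied to 7 of 1177 and 144 of 1710 of these cells.

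**Figure D1:**
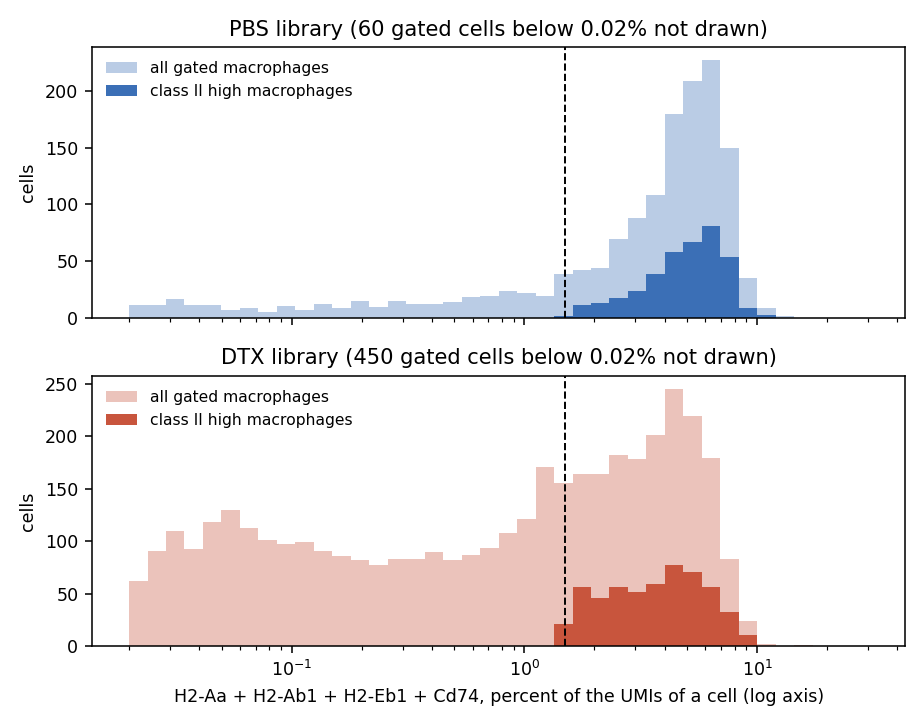
Number of gated macrophages (y axis) by the percent of their UMIs that came from *H2-Aa*, *H2-Ab1*, *H2-Eb1* and *Cd74* (x axis, log scale), in the PBS (top) and DTX (bottom) library, with class II high macrophages in dark colour, the 1.5% threshold dashed and cells below the drawn range left out. Gated cells crowd to the right of the threshold in the PBS library, where 75.7% lie above it, and spread to its left in the DTX library, where 37.9% do.

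The class II share ran on across the threshold. The lowest class II high macrophage had 1.57% class II RNA in the PBS and 1.5003% in the DTX library, and the highest of the cells just outside had 1.49% in both. Between 1.5% and 2% lay 17 of 372 and 84 of 538 members (4.57% and 15.6%), and over 5% lay 195 and 159 (52.4% and 29.6%). The median was 5.12% and 3.82%. Depth also differed, with medians of 5431.5 UMIs and 1764.5 genes per member in the PBS and 7241 UMIs and 2136 genes in the DTX library. With every cell thinned to 2000 UMIs before the rule was applied, class II high macrophages were 27.7% (24.8% to 30.7%) of gated cells in the PBS and 18.6% (17.2% to 20.2%) in the DTX library, with 499 and 435 shallower cells left out. The thinned rule called 261 and 488 cells, and 194 and 260 of these were among the 372 and 538 members. The limits set in UMIs per cell, such as those on *Lyz2* and *Ly6c2*, act differently at this depth. The thinned shares therefore hold other cells too.

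The class II high macrophages of both libraries had nearly the same mix of class II RNAs. *Cd74* gave 46.1% of the 4-gene sum in the PBS and 46.7% in the DTX library, *H2-Aa* 21.7% and 21.1%, *H2-Ab1* 17.3% in both, and *H2-Eb1* 14.9% in both. In cells that passed every other limit of the rule but lay under 1.5%, called class II low macrophages here (96 and 697 cells), the beta chain *H2-Eb1* gave a smaller part, 10.6% and 8.05%. Levels below are CPM, the UMIs of a gene per 1000000 UMIs of the summed cells of a group. Ratios are on the log2 scale after 1 CPM was added, and intervals of ratios are those before it was added. The sum of the 4 genes was 51989 CPM in the PBS and 42158 CPM in the DTX library, and the log2 ratio of DTX to PBS was −0.30. *H2-Aa* (chr17:34282744-34287823, GRCm38) stood at 11268 CPM (11129 to 11408) and 8885 CPM (8795 to 8977). T and NK cells held 193 and 129 CPM of it. None of 16 measured class II genes was past 2-fold between the libraries, beside 1.54% of all genes higher and 3.04% lower.

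H2-DM, which edits the peptide in the groove, followed the class II chains although the rule did not use it. *H2-DMb1* (chr17:34153072-34160230), its beta chain, stood at 616 CPM (584 to 650) in class II high macrophages of the PBS and 563 CPM (540 to 586) in those of the DTX library. In class II low macrophages it stood at 65.1 and 87.0 CPM, and the log2 ratios between the groups were 3.22 (2.77 to 3.76) and 2.68 (2.54 to 2.85). It was detected in 84.4% and 84.9% of class II high macrophages, in 22.9% and 27.7% of class II low macrophages and in 2.31% and 4.83% of T and NK cells. The alpha chain *H2-DMa* (chr17:34119541-34139101) stood at 631 and 474 CPM against 112 and 120 CPM, and the log2 ratios were 2.48 and 1.98. *H2-DMb2*, a further beta chain, had 31.8 and 18.5 CPM in class II high macrophages and no UMI in class II low macrophages of the PBS library (0 to 6.67 CPM), where those of the DTX library had 1.31 CPM. Because *H2-DMa*, *H2-DMb1* and *H2-DMb2* lie side by side and the beta genes are close in sequence, reads may be split between them.

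The regulators of class II transcription were at low levels. *Ciita*, the coactivator, had 17.5 CPM (12.4 to 23.9) and 16.8 CPM (13.1 to 21.3) in class II high macrophages and 5.42 and 1.31 CPM in class II low macrophages. It was detected in 5.65% and 6.32% of class II high macrophages and in 0.926% and 0.690% of T and NK cells. The log2 ratio of *Ciita* to class II low macrophages of the PBS library was 1.52. It was 0.43 (−1.29 to 2.87) with *Cd207* or *Epcam* cells left out. *Rfxap*, *Nfya*, *Nfyb* and *Nfyc*, which encode subunits of the factors on the X and Y boxes, had log2 ratios to class II low macrophages between −0.32 and 0.32 over both libraries. Between the libraries they were 0.23 to 0.55 higher in the DTX library. The level of *H2-Oa* and *H2-Ob*, whose product restrains H2-DM in B cells and dendritic cells, did not exceed 6.73 CPM in either library.

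The proteases that process the invariant chain differed among themselves. *Ctss*, the cathepsin that cuts it in macrophages and dendritic cells, had 2667 and 2695 CPM in class II high macrophages and 3592 and 2512 CPM in class II low macrophages. *Ctsl*, a related cathepsin, was lower in class II high macrophages, with 688 and 770 CPM against 1920 and 1626 CPM and log2 ratios of −1.48 and −1.08. The DTX ratio lay under 2-fold in several alternatives, at −0.79 in cells of at most 2000 genes. The legumain gene *Lgmn* had 1140 and 1255 CPM against 1459 and 1354 CPM. Against class II low macrophages, 7 of 14 measured class II genes were past 2-fold higher in the PBS and 8 of 16 in the DTX library, and *Ctsl* was the single gene past 2-fold lower in each. Over all genes with at least 50 UMIs these shares were 3.83% higher and 4.37% lower in the PBS and 1.16% and 2.66% in the DTX library. The 4 genes of the rule are among those counted. The median log2 ratio of the class II genes in the DTX library was 1.15, and 0.26 with *Cd207* or *Epcam* cells left out. The 14 measured genes of class I presentation had medians of 0.19 and 0.20, and *Tap1* in the PBS library was the 1 gene past 2-fold, higher.

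**Figure D2:**
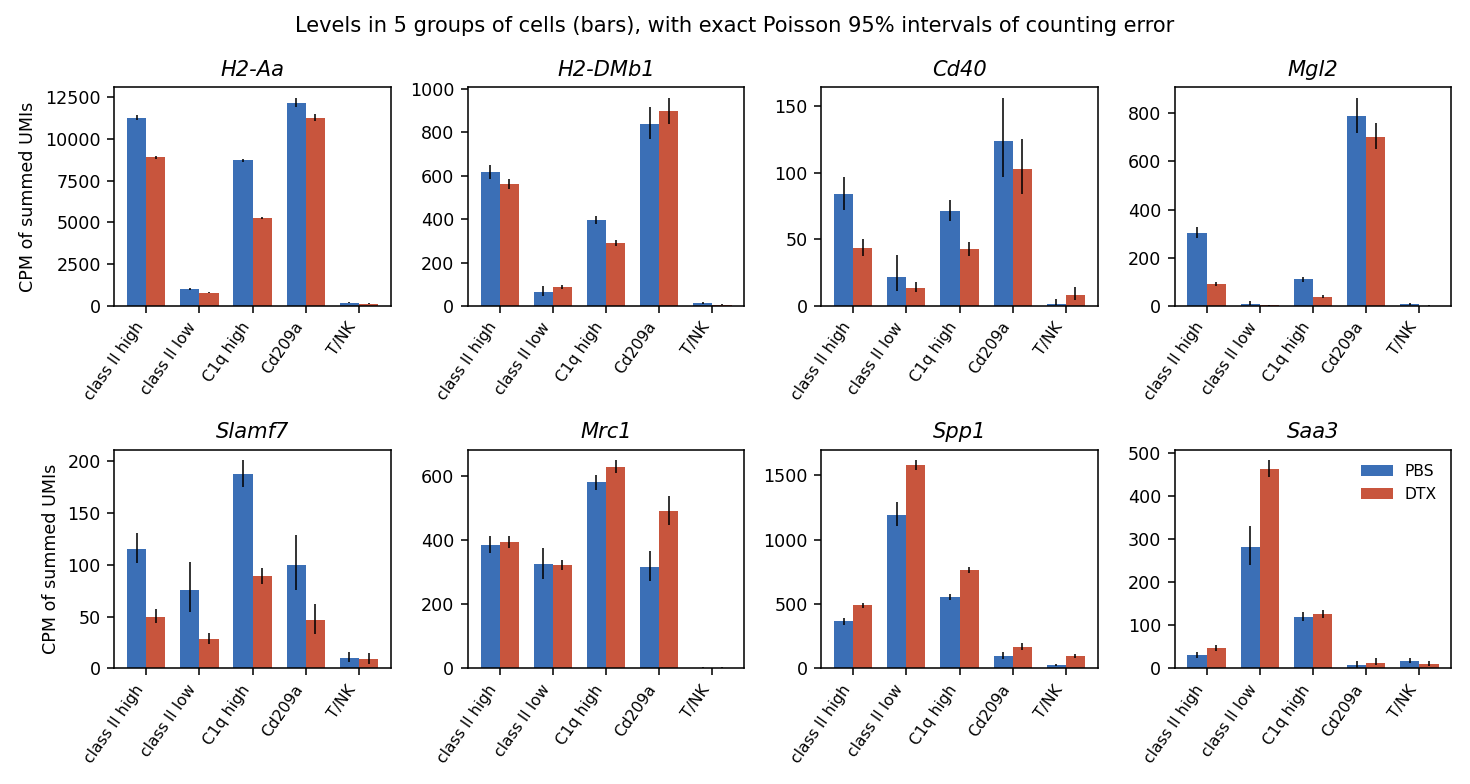
Level in CPM (y axes, from 0) of 8 genes in class II high and class II low macrophages, C1q-high and *Cd209a* cells of the gate, and T and NK cells, in the PBS (blue) and DTX (red) library, with exact Poisson 95% intervals of counting error. *H2-DMb1*, *Cd40* and *Mgl2* stand higher and *Spp1* and *Saa3* lower in class II high than in class II low macrophages of both libraries, while *Slamf7* is highest in C1q-high cells.

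*Slamf7*, a receptor of the SLAM family that binds itself on neighbouring cells, was taken as a further marker of these cells. It lies on chr1:171632403-171653035 and was not part of the rule. It stood at 115 CPM (101 to 130) in class II high macrophages of the PBS and 49.998 CPM (43.4 to 57.3) in those of the DTX library. The log2 ratio of DTX to PBS was −1.19 (−1.47 to −0.93). It was detected in 38.7% (33.7% to 43.9%) and 22.7% (19.2% to 26.5%) of the cells, or 18.9% and 10.1% after thinning to 2000 UMIs. T and NK cells, at a median of 7120.5 and 8637 UMIs per cell, had it in 6.02% and 6.90%, or 3.30% and 2.76% after thinning.

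*Slamf7* was also present in the other macrophages of the gate. C1q-high cells of the gate, those with C1q RNA at 0.5% or more, held 187 and 88.6 CPM, and the log2 ratios of class II high macrophages to these cells were −0.70 and −0.81. Class II low macrophages held 75.9 and 28.4 CPM. The DTX library was lower in these groups too, with log2 ratios of −1.07 in C1q-high cells and −1.39 in class II low macrophages. *Slamf8*, which limits the oxidative burst of macrophages, stood at 36.7 and 12.98 CPM and *Ly9* at 39.4 and 14.4 CPM in class II high macrophages. *Cd84* stood at 61.8 and 62.5 CPM and *Cd48* at 88.6 and 85.8 CPM, close to equal in the 2 libraries. Of 7 measured SLAM family genes, *Slamf7*, *Slamf8* and *Ly9* were past 2-fold lower in the DTX library and none was higher, with a median of −0.32. Over all 7033 genes with at least 50 UMIs in the class II high macrophages, 3.04% were past 2-fold lower and 1.54% higher, with a median of 0.06.

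Costimulatory genes, whose products give T cells the signal beside the peptide, were mixed. *Cd86* stood at 348 CPM (324 to 373) and 371 CPM (353 to 390) in class II high and at 141 and 261 CPM in class II low macrophages. Its log2 ratio between these groups in the PBS library was 1.30, and 0.99 with *Cd207* or *Epcam* cells left out. *Cd40*, which receives the ligand of helper T cells, stood at 83.7 CPM (72.1 to 96.6) and 43.5 CPM (37.4 to 50.3) against 21.7 and 13.8 CPM, with log2 ratios of 1.90 and 1.59. *Cd80*, the partner of *Cd86* in binding CD28, hardly separated the groups but separated the libraries. It stood at 58.2 CPM (48.6 to 69.1) in class II high macrophages of the PBS and 142 CPM (131 to 154) in those of the DTX library. Its log2 ratio of DTX to PBS was 1.27 (1.01 to 1.57) and 1.58 in class II low macrophages and 1.38 in C1q-high cells, and *Cd80* was detected in 28.2% and 53.9% of class II high macrophages, or 10.3% and 20.2% after thinning, and in 2.78% and 6.90% of T and NK cells. *Cd274*, which encodes the inhibitory ligand PD-L1, stood at 126 and 137 CPM, and *Cd83*, a stabiliser of surface class II, at 360 and 392 CPM. Of 8 measured genes, *Cd80* alone was past 2-fold between the libraries, beside 1.54% of all genes higher and 3.04% lower, and the median was −0.07. The ratio of *Cd80* was 0.84 in cells of at most 2000 genes.

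*Mrc1* (chr2:14229392-14332057), whose promoter drives the toxin receptor, had overlapping intervals in the class II high macrophages of both libraries. It stood at 387 CPM (361 to 413) in the PBS and 395 CPM (376 to 415) in the DTX library, a log2 ratio of 0.03 (−0.09 to 0.15). It was detected in 72.3% (67.5% to 76.8%) and 71.6% (67.5% to 75.3%) of these cells and in 0.926% and 1.38% of T and NK cells. After thinning these shares were 45.7% and 43.0%. C1q-high cells held 581 and 629 CPM and class II low macrophages 325 and 322 CPM. Counts of cells in a library do not give the number of *Mrc1* cells per wound.

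*Mgl2*, the lectin CD301b of dermal dendritic cells and of some macrophages, led the genes outside the rule when class II high and class II low macrophages were ranked by the smaller ratio of both libraries. It lies on chr11:70130329-70137550 and stood at 303 CPM (280 to 326) and 90.1 CPM (81.3 to 99.7) against 9.04 and 2.62 CPM, with log2 ratios of 4.92 (3.84 to 6.69) and 4.65 (4.28 to 6.07). It was detected in 34.7% (29.8% to 39.8%) of class II high macrophages in the PBS and 15.4% (12.5% to 18.8%) in the DTX library, and in 1.85% and 0 of T and NK cells. *Mgl2* was also lower in the DTX library in C1q-high cells, with 110 and 38.4 CPM, but stood at 788 and 702 CPM in the class II rich, C1q-poor cells of the gate with *Cd209a*, a marker of type 2 dendritic cells. *Cd209a* itself was at 0 by the rule. *Clec10a*, the related lectin CD301a, stood at 83.2 and 70.9 CPM in class II high macrophages.

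Class II high macrophages with *Mgl2* also carried *Mrc1* more often. In the PBS library 87.6% of the 129 cells with *Mgl2* and 64.2% of those without it had *Mrc1*, and in the DTX library 91.6% of 83 and 67.9% of the others. After thinning these shares were 62.5% and 40.2% in the PBS and 58.1% and 41.7% in the DTX library. *Clec10a* went with *Mgl2* in the same way, in 45.0% against 23.5% and in 55.4% against 17.4% of cells, or 28.4% against 11.8% and 20.9% against 6.91% after thinning. The median class II share was 5.74% in cells with *Mgl2* and 4.71% in those without it in the PBS library, and 4.79% and 3.60% in the DTX library. Cells with *Mgl2* were also deeper, with medians of 6567 against 4852 and 8686 against 6990 UMIs.

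Inside the class II high macrophages, other genes differed in level with the class II share. The cells of each library were ranked by it and split into quartiles of 93 cells in the PBS and 134 or 135 in the DTX library. From the lowest to the highest quartile, *H2-DMb1* went from 346 (299 to 399) to 925 CPM (848 to 1006) in the PBS and from 311 (277 to 349) to 779 CPM (729 to 830) in the DTX library, with each quartile above the one before. *Tmem176b*, an endosomal cation channel gene of antigen-presenting cells, went from 310 to 592 and from 155 to 336 CPM. *Ctsl* went the other way, from 1109 to 366 and from 1118 to 457 CPM. A share of all UMIs ties these genes to each other within a cell, so these orders are descriptions.

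*H2-DMa* followed the order of *H2-DMb1*, with 398, 597, 705 and 810 CPM over the quartiles of the PBS and 306, 389, 491 and 660 CPM over those of the DTX library. *Spp1*, *Saa3* and *Mrc1* had a steady order in the DTX library only. *Spp1*, the osteopontin gene of wound macrophages, went from 875 (817 to 936) to 278 CPM (249 to 310) over the quartiles in the DTX library, but in the PBS library the lowest 3 quartiles held 404 to 416 CPM and the highest 243 CPM. *Saa3*, an acute phase gene, went from 86.9 (69.3 to 108) to 15.9 CPM (9.59 to 24.9) in the DTX library and stayed between 21.4 and 40.4 CPM in the PBS library. *Mrc1* went from 456 to 284 CPM in the DTX library and had no steady order in the PBS library, where it lay between 341 and 451 CPM. *Mgl2* stood at 165 and 151 CPM in the lower quartiles and 528 and 356 CPM in the upper quartiles of the PBS library, and went from 19.7 to 137 CPM in the DTX library. *Csf1r* stayed between 327 and 405 CPM in all 8 quartiles. *Slamf7* lay between 84.3 and 144 CPM in the PBS and between 42.1 and 59.5 CPM in the DTX library, with neighbouring intervals that overlapped.

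**Figure D3:**
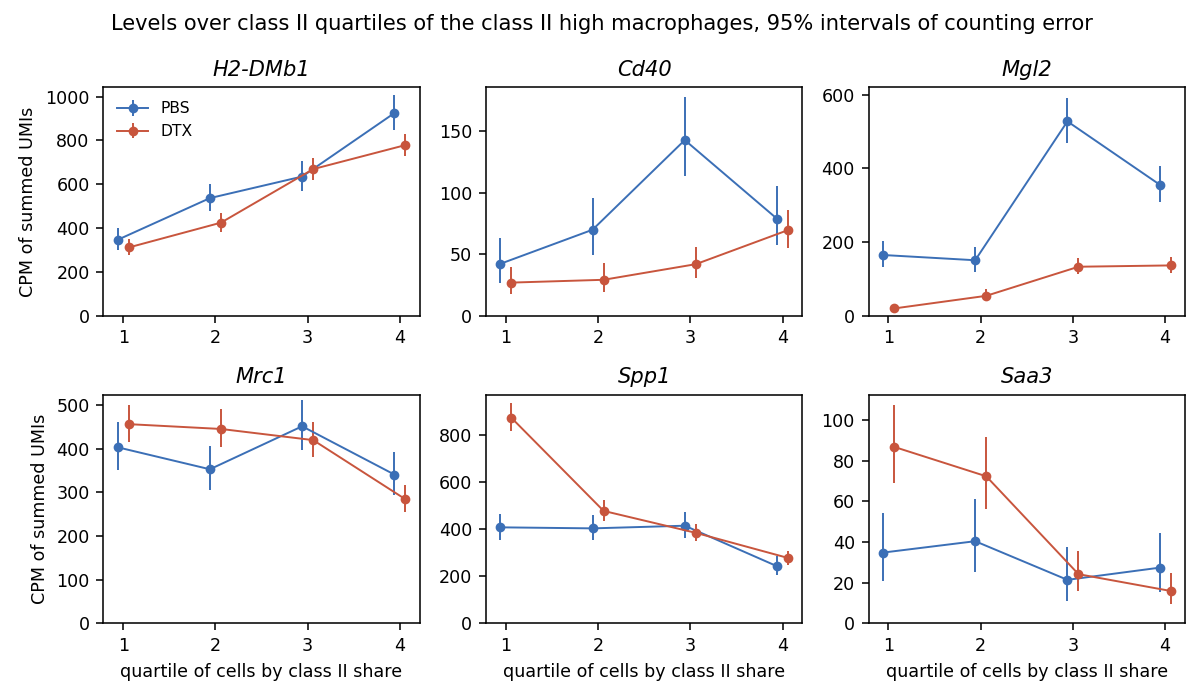
Level in CPM (y axes, from 0) of 6 genes in class II high macrophages split into quartiles by their class II share (x axis, 1 is the lowest), in the PBS (blue) and DTX (red) library, with exact Poisson 95% intervals of counting error. *H2-DMb1* is higher in each next quartile of both libraries, and *Spp1* goes from 875 to 278 CPM in the DTX library.

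Beyond the class II machinery, the class II high macrophages were compared with class II low macrophages across all genes within each library. Of 5090 genes measured in both libraries, 36 were past 2-fold higher (0.707%) and 44 lower (0.864%) in both. Next in rank to *Mgl2* was *Cd207*, at 164 and 185 CPM against 9.04 and 3.50 CPM, which rests on the few cells described above. *Clec4b1*, a C-type lectin of monocyte-derived and dendritic cells, stood at 90.4 and 40.4 CPM against 16.3 and 4.59 CPM. *Ear2*, a ribonuclease gene of monocytes and eosinophils, stood at 188 and 38.0 CPM against 39.8 and 8.52 CPM, and copies of this gene family are near-identical, so its reads are uncertain. *Tnip3*, an inhibitor of NF-kB signalling, stood at 203 and 116 CPM against 39.8 and 31.04 CPM. *Pgf*, the placental growth factor gene, stood at 141 and 201 CPM against 14.5 and 59.7 CPM.

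The Langerhans list, *Cd207*, *Epcam*, *Cdh1* and *Mfge8*, summed to 421 CPM in class II high against 497 CPM in class II low macrophages of the PBS library and to 343 against 84.4 CPM in the DTX library. With cells that held *Cd207* or *Epcam* left out, the ratio of *Mfge8* to class II low macrophages changed from 1.48 to −1.04 in the PBS and from 2.58 to −0.18 in the DTX library, and that of *Tbc1d4* changed from 2.43 to −0.31 in the PBS library. In the class II high macrophages 78.7% and 86.3% of the *Mfge8* UMIs and 82.6% and 63.8% of the *Tbc1d4* UMIs lay in 5 cells. *Lyz1* likewise had 77.4% and 90.6% of its UMIs in 5 cells.

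*Saa3* and *Spp1* led the genes that were lower in class II high than in class II low macrophages. *Saa3* stood at 30.9 CPM (24.0 to 39.1) and 47.1 CPM (40.7 to 54.2) against 282 and 462 CPM, with log2 ratios of −3.15 and −3.27. These were under 2-fold for *Saa3* in the PBS library at a C1q limit of 0.25% (−0.91) and in the DTX library at a class II threshold of 1% (−0.85). *Spp1* stood at 366 CPM (341 to 392) and 489 CPM (468 to 511) against 1195 and 1580 CPM, with log2 ratios of −1.70 and −1.69. *Chil3*, a chitinase-like gene of monocytes, *Slpi*, a protease inhibitor, and *Hp*, the haptoglobin gene, were past 2-fold lower in both libraries. *Fabp4*, *Ifi202b* and *Mast4* were also among the 10 lowest, but each turned to a ratio above 0 in at least 1 library under other limits on cells, as did *Ccl8* in the DTX library.

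Of 10 lipid-associated macrophage genes, such as *Trem2*, *Gpnmb* and *Apoe*, 8 were past 2-fold lower in class II high macrophages of the PBS library and *Spp1* alone in the DTX library. The medians were −1.38 and −0.61, and 10 and 9 of the 10 genes were lower. Over all genes 2638 of 5122 in the PBS and 4686 of 7747 in the DTX library stood lower, and 4.37% and 2.66% were past 2-fold lower. *Gpnmb* stood at 81.9 and 29.8 CPM against 555 and 60.3 CPM, and *Apoe* at 4331 and 4003 CPM against 10805 and 4973 CPM. Among monocyte genes, 2 of 8 in the PBS and 5 of 10 in the DTX library were past 2-fold lower, beside the same 4.37% and 2.66% of all genes, and none was higher. Of 12 macrophage identity genes none was past 2-fold in the DTX library, and *Maf* was past 2-fold lower in the PBS library. The class II low macrophages of the PBS library were 96 cells with 5852 CPM of 10 keratinocyte genes, against 1672 CPM in the class II high macrophages, and the part of this RNA in these ratios was not tested.

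**Figure D4:**
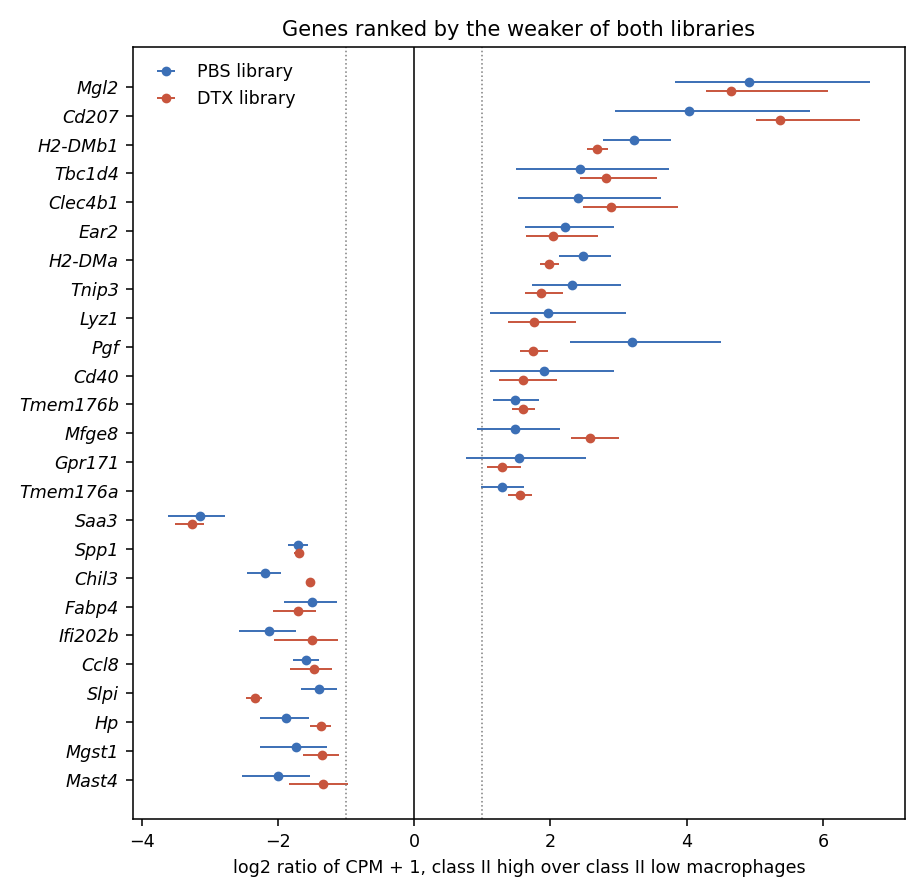
Log2 ratio of CPM with 1 added, class II high over class II low macrophages (x axis), for the 15 highest and 10 lowest genes by the weaker of both libraries, in the PBS (blue) and DTX (red) library, with bars for exact conditional binomial 95% intervals of the ratio before 1 CPM was added and dotted lines at 2-fold. *Mgl2* leads at 4.92 and 4.65 and *Saa3* is lowest at −3.15 and −3.27.

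Between conditions, *Ifitm1* and *Chil3* were among the genes past 2-fold higher and *Igf1*, *Ccl8* and *Lpl* among those past 2-fold lower in class II high macrophages of the DTX library. Of 7033 genes, 108 (1.54%) were past 2-fold higher and 214 (3.04%) lower, and 4011 stood above and 3022 below a ratio of 0. RNA of other cell types differed with the library. Summed over 8 fibroblast genes, class II high macrophages held 1334 CPM in the PBS and 252 CPM in the DTX library, and 8 of 8 genes were past 2-fold lower. Summed over 10 keratinocyte genes they held 1672 and 376 CPM, with 9 of 10 past 2-fold lower. In T and NK cells the sums were 604 and 612 CPM for fibroblast and 13486 and 6125 CPM for keratinocyte genes, and the medians per cell were 0.0640% and 0.0129% of UMIs, and 0.0593% and 0.0208%. In class II high macrophages the medians were 0.0793% and 0.0165%, and 0.0521% and 0.0136%. More than 0.25% of these RNAs together was held by 56 members (15.1%) of the PBS and 6 (1.12%) of the DTX library. With cells over 0.25% left out, 118 genes were past 2-fold higher and 106 lower, and with the top 8% of doublet scores left out, 90 were lower.

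*Ifitm1*, a membrane protein gene of the interferon-induced transmembrane family, had the highest ratio of DTX to PBS among genes with at least 100 UMIs. It stood at 45.7 CPM (37.2 to 55.4) in the PBS and 655 CPM (630 to 680) in the DTX library, a log2 ratio of 3.81 (3.56 to 4.14), and was detected in 13.4% and 50.4% of class II high macrophages, or 6.13% and 36.1% after thinning. In T and NK cells it stood at 144 and 21.1 CPM and was detected in 7.87% and 5.52%. The related *Ifitm6* stood at 14.3 and 54.8 CPM. Of 14 type I interferon response genes *Ifit2* alone was past 2-fold, lower, with a median of 0.11, where 3.04% of all genes were past 2-fold lower and 1.54% higher. Of 13 interferon gamma response genes *Cxcl9* and *Gbp2* were past 2-fold lower and none higher, with a median of −0.27. *Cxcl9*, a chemokine for T cells, stood at 90.9 and 9.38 CPM, but 92.1% of its UMIs lay in 5 cells of the PBS library and 100% in 5 cells of the DTX library, and its log2 ratio was 0.32 with the C1q limit at 0.25%.

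All 9 measured monocyte genes stood higher in the class II high macrophages of the DTX library, as did 4011 of all 7033 genes, with a median of 0.84, and *Chil3* and *Plac8* were among those past 2-fold. *Chil3* went from 115 CPM (101 to 130) to 596 CPM (573 to 620) and from 23.9% to 52.2% of the cells, or from 13.9% to 40.2% after thinning, with 0.463% and 5.52% of T and NK cells. *Plac8* went from 648 CPM (616 to 683) to 1318 CPM (1283 to 1353), a log2 ratio of 1.02 that fell under 2-fold in several alternatives and was lowest, 0.54, in cells of at most 2000 genes. *Vcan* went from 91.7 to 163 CPM and *Ccr2*, the receptor that draws monocytes into tissue, from 120 to 163 CPM. The *Ly6c2* level is capped by the rule and stood at 60.4 and 74.8 CPM. The median of the same list was 0.63 in class II low macrophages, 1.14 in C1q-high cells and 0.39 in T and NK cells.

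Inflammatory mediators were higher by less than 2-fold for most genes. Of 17 measured genes 14 stood higher and 3 lower, beside 4011 and 3022 of all genes, with a median of 0.44, and *Il1a*, *Cxcl3* and *Ccl3* were past 2-fold. *Il1b* had the highest level of those named, at 2489 CPM (2424 to 2555) and 4062 CPM (4001 to 4124), a log2 ratio of 0.71. It was detected in 84.9% and 90.9% of class II high macrophages and in 8.80% and 20.0% of T and NK cells. *Cxcl3*, a chemokine for neutrophils, went from 135 to 315 CPM and *Ccl3* from 38.0 to 140 CPM. *Osm*, the oncostatin M gene, went from 254 to 506 CPM. In the PBS library *Il1b* was also higher in class II high than in class II low macrophages, 2489 against 954 CPM, whereas in the DTX library the values were 4062 and 3404 CPM. Of 15 genes of glycolysis and hypoxia 12 stood higher in the DTX library, beside 4011 of 7033 of all genes, and none was past 2-fold, with a median of 0.37, and *Eno1* went from 225 to 353 CPM.

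Genes of alternative activation and repair differed in both directions. Of 15 measured, 3 were past 2-fold higher, *Arg1*, *Chil3* and *Ccl24*, and 4 lower, *Retnla*, *Igf1*, *Ccl17* and *Mmp12*. Of all genes, 1.54% were past 2-fold higher and 3.04% lower. The log2 ratio of *Ccl17* was −1.77 but turned to 1.58 in cells of at most 2000 genes. That of *Ccl24* was 1.31, and 0.90 at a class II threshold of 2%. *Igf1*, the growth factor gene, went from 56.8 CPM (47.4 to 67.6) to 11.3 CPM (8.30 to 15.02). *Arg1*, which the rule keeps under 5 UMIs per cell, went from 4.92 to 31.3 CPM. *Retnla* had UMIs in 4 and 3 cells. *Ccl8*, a chemokine of resident macrophages, went from 238 CPM (218 to 259) to 27.6 CPM (22.8 to 33.2), a log2 ratio of −3.06, and *Lpl*, the lipoprotein lipase gene, from 279 to 64.7 CPM. These were also lower in C1q-high cells of the DTX library, with log2 ratios of −1.89 for *Igf1*, −1.41 for *Ccl8* and −3.03 for *Lpl*. *Tgfb1* went from 210 to 400 CPM.

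Other genes at the ends of the ranking are given here, most of them with their spread over cells or their level in T and NK cells. The source of their RNA was not tested. *S100a8* and *S100a9*, calprotectin genes of neutrophils, stood at 41.6 and 43.9 CPM in the PBS and 182 and 281 CPM in the DTX library, but 5 cells held 89.2% and 90.8% of their UMIs in the PBS and 67.3% and 65.4% in the DTX library. With the top 8% of doublet scores left out their log2 ratios turned, to −1.22 and −1.05. In T and NK cells they stood at 14.3 and 53.7 CPM in the PBS and 124 and 248 CPM in the DTX library. *Cnfn*, *Crct1*, *Cst6*, *Sbsn*, *Krtdap* and *2310046K23Rik*, of which the first 5 are genes of the cornified epidermis, were among the 10 lowest ratios, and 5 cells of the PBS library held 84.5% to 99.6% of the UMIs of each. The ratio of *Cst6* was 0.09 with the top 8% of doublet scores left out and that of *Cnfn* 0.14 in cells of at most 2000 genes. *Mid1* stood at 159 and 1.92 CPM and *Gm47283* at 158 and 2.88 CPM in the class II high macrophages. In T and NK cells *Mid1* stood at 62.5 and 5.44 CPM and *Gm47283* at 161 and 3.40 CPM, lower in the DTX library as well. *Klrd1*, a lectin gene of NK cells and of some dendritic cells, went from 4.48 to 34.1 CPM, with 49.3% of its UMIs in 5 cells of the DTX library. *Nt5e*, the ectonucleotidase CD73, went from 5.37 to 28.4 CPM, and *Ly6i* from 10.3 to 52.4 CPM.

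**Figure D5:**
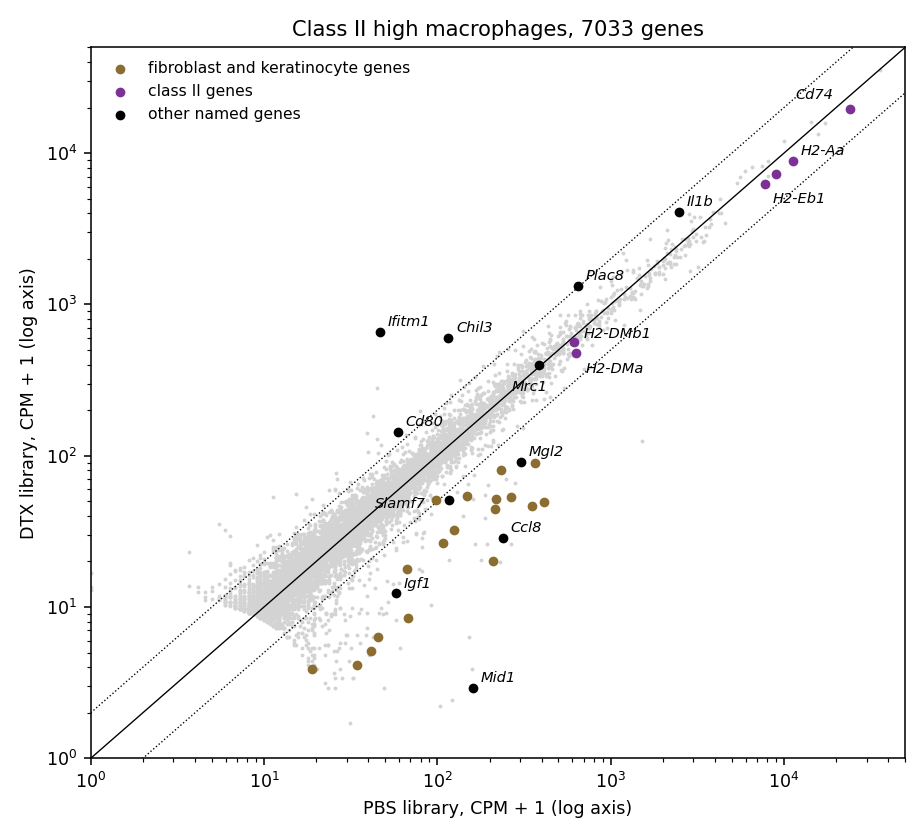
Level in CPM with 1 added of 7033 genes in class II high macrophages, the DTX library (y axis) against the PBS library (x axis), both on log axes, with dotted lines at 2-fold. *Ifitm1* and *Chil3* lie above the upper line, *Mid1*, *Ccl8*, *Mgl2*, *Slamf7* and *Igf1* below the lower line, class II genes (purple) between the lines, and fibroblast and keratinocyte genes (brown) near or below the lower line.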

How the data were processed

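Single-cell RNA was measured in 1 PBS and 1 DTX library. The authors deposited a matrix of unnormalized UMI counts for each library, from Cell Ranger (6.1.1 in the submitters' processing notes, and another version in the methods) on mm10. Totals were 105511870 UMIs in 12058 cells (PBS, median 7649 per cell) and 81858751 UMIs in 11031 cells (DTX, median 6502). No doublets were removed. Scrublet's own threshold called 382 and 0 cells, so leaving out the top 8% of scores was an alternative. The libraries shared 37 barcodes, found in 1 PBS and 2 DTX members.

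Per group the UMIs of all cells were added up and scaled to CPM of all genes, with 1 CPM added before log2 ratios. Genes with at least 50 UMIs over the 2 groups were compared, and 2-fold was the size used. Without replicates there was no test. Intervals are exact Poisson for levels, conditional binomial for ratios and Clopper-Pearson for shares. T and NK cells, with at least 5 UMIs over T and NK markers, no UMI of the gate's 4 receptor genes and the same limits on fibroblast and keratinocyte RNA, gave the level of free RNA. Thinning to 2000 UMIs used seed 1. Shares of cells with a gene after thinning are those of the original groups. Ratios, medians, gene counts and shares of members after thinning come from the rule applied anew to the thinned cells. The ratio code was tested on simulated data.

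Members, the 28 gene lists and the markers were chosen with earlier results of these data known. Named were genes of the rule, the class II, SLAM and costimulation lists, up to 4 examples of other lists, *Mrc1*, the 10 highest and 10 lowest ratios between libraries (at least 100 UMIs), and the 15 highest and 10 lowest genes against class II low macrophages in both libraries. Further genes of the lists (*Osm*, *Tgfb1*, *Pgf* and others) were named after their values were seen, as was the range of bases between the promoter motifs. Some list members are not reported here. Promoters came from RefSeq (GRCm38.p6) and gene positions from GENCODE vM21. Python 3.11.15, numpy 2.4.6, scipy 1.17.1, pandas 2.3.3, scanpy 1.11.5, anndata 0.12.19 and matplotlib 3.10.9 were used.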

Additional observations from a re-analysis of the deposited data

Results flagged for a closer look

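For 7 genes a contrast ran past 2-fold in opposite directions in 2 groups. Each difference rests on 1 library per group and was not tested.

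For 6 genes the opposite directions were those of the libraries, in the log2 ratio of class II high to class II low macrophages. *Mmp12*, a macrophage elastase, had −1.26 in the PBS and 1.30 in the DTX library. Its level was 139 against 334 CPM in the PBS and 38.7 against 15.1 CPM in the DTX library, so that it was lower in both groups of the DTX library. *Serpina3n* had 1.85 in the PBS and −2.27 in the DTX library, and 5 cells held 75.9% and 75% of its UMIs in class II high macrophages. The fibroblast genes *Dcn* (1.14 and −1.21), *Mmp2* (1.16 and −1.53) and *Sparc* (1.08 and −1.60) went the same way. The keratinocyte gene *Cst6* had −2.49 in the PBS and 1.73 in the DTX library, and 5 class II high macrophages held 92.4% and 80.4% of its UMIs.

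*Ifit2*, an interferon-induced gene, had opposite directions in 2 cell groups. Its log2 ratio of DTX to PBS was −1.12 in class II high macrophages, from 18.4 and 7.93 CPM, and 1.06 in C1q-high cells, from 11.6 and 25.4 CPM. In class II high macrophages 5 cells held 73.2% and 60.6% of its UMIs.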

How the results depend on the processing

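Each choice was changed in turn under 19 alternatives, of which 4 were chosen after seeing the data (*Cd207* or *Epcam* cells left out, fibroblast and keratinocyte RNA under 0.25%, shared barcodes left out, no *Ly6c2* limit). Leaving out a library was not possible with 1 per group. No paired analysis was possible because each condition has 1 library. Of 2276 values under alternatives of ratios and medians past 2-fold, 2253 kept their sign and 2136 also stayed past 2-fold. This count includes changes of the minimum of UMIs, which by design leave the ratio of a single gene as it was. Of the values beside the main results, adding 0.1 CPM and leaving out shared barcodes each moved 0 and left 196 the same. For ratios, moved means outside the interval of the main value. Thinning left 93 the same, moved 101 and turned 1. *Slamf7* in DTX against PBS stayed between −1.31 and −0.97. The cause of each change below was not tested.

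The share of gated macrophages (23.9% PBS, 11.9% DTX) was 27.7% and 18.6% after thinning, 14.99% and 9.12% at a C1q limit of 0.25%, 38.5% and 15.1% at 1%, 20.3% and 10.9% without *Cd207* or *Epcam* cells, and 34.6% and 24.0% with no *Ly6c2* limit. In the PBS library it was 20.3% with fibroblast and keratinocyte RNA under 0.25%. In the DTX library it was 14.4% and 10.1% at class II thresholds of 1% and 2%, and 10.8% without *Flt3* or *Zbtb46* cells. The limits on *Cd207* or *Epcam*, on *Flt3* or *Zbtb46*, and on fibroblast and keratinocyte RNA took cells from the members only. The gated cells were left as they were, so under these limits the share could not rise.

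The share of kept cells (4.47% PBS, 7.48% DTX) was 2.80% and 5.73% at a C1q limit of 0.25%, 7.18% and 9.52% at 1%, 3.78% and 6.87% without *Cd207* or *Epcam* cells, and 6.45% and 15.1% with no *Ly6c2* limit. In the PBS library it was 10.3% at most 2000 genes per cell, 3.33% after thinning and 3.80% with fibroblast and keratinocyte RNA under 0.25%. In the DTX library it was 9.03% and 6.32% at class II thresholds of 1% and 2%, and 6.79% without *Flt3* or *Zbtb46* cells. Here too the limits on *Cd207* or *Epcam*, on *Flt3* or *Zbtb46*, and on fibroblast and keratinocyte RNA left the kept cells as they were.

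Of genes past 2-fold in DTX against PBS (108 higher, 214 lower), the counts were 65 and 72 at most 2000 genes per cell, 33 and 122 with 10 CPM added, 38 and 58 at 200 UMIs, and 380 and 934 with no minimum beyond 1 UMI. The lower count was 90 without the top 8% of doublet scores, 48 after thinning, 138 without *Cd207* or *Epcam* cells and 106 with fibroblast and keratinocyte RNA under 0.25%.

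Of genes past 2-fold against class II low macrophages in both libraries (36 higher, 44 lower), the counts were 15 and 19 at most 2000 genes per cell, 17 and 7 after thinning, 18 and 17 at 200 UMIs, and 108 and 167 with no minimum. The lower count was 22 without the top doublet scores, 21 at a class II threshold of 1%, 28 at a C1q limit of 0.25%, 23 by the mean of cells, 18 with 10 CPM added, 18 without *Cd207* or *Epcam* cells and 17 with fibroblast and keratinocyte RNA under 0.25%.

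The log2 ratio of the class II sum, DTX to PBS (−0.30), was −0.35 without the top doublet scores and by the mean of cells, −0.56 at most 2000 genes per cell, −0.49 after thinning, −0.42 and −0.21 at class II thresholds of 1% and 2%, −0.25 and −0.27 at C1q limits of 0.25% and 1%, −0.34 without *Flt3* or *Zbtb46* cells, −0.36 without *Cd207* or *Epcam* cells, −0.37 with fibroblast and keratinocyte RNA under 0.25% and −0.41 with no *Ly6c2* limit. *Slamf7* against class II low macrophages of the PBS library (0.59) was 1.20 with no *Ly6c2* limit, 1.05 after thinning, 0.37 with fibroblast and keratinocyte RNA under 0.25% and 0.17 at a C1q limit of 1%.

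Directions turned in DTX against PBS for *S100a9* (−1.05), *S100a8* (−1.22) and *Cst6* (0.089) without the top doublet scores, for *Cnfn* (0.14) and *Ccl17* (1.58) at most 2000 genes per cell, and for *Cxcl9* (0.32) at a C1q limit of 0.25%. Against class II low macrophages of the PBS library they turned for *Mfge8* (−0.63 without the top doublet scores, −1.04 without *Cd207* or *Epcam* cells), *Tbc1d4* (−0.34 at most 2000 genes per cell, −0.31 without *Cd207* or *Epcam* cells), *Fabp4* (0.28 at a C1q limit of 0.25%), *Ifi202b* (0.023 without *Cd207* or *Epcam* cells) and *Mast4* (0.44 without *Cd207* or *Epcam* cells, 0.17 with fibroblast and keratinocyte RNA under 0.25%). In the DTX library they turned for *Lyz1* (−1.08) and *Mfge8* (−0.38) at most 2000 genes per cell, *Mfge8* (−0.18) without *Cd207* or *Epcam* cells, *Fabp4* (1.10 at most 2000 genes per cell, 0.26 after thinning, 1.17 with fibroblast and keratinocyte RNA under 0.25%), *Ifi202b* (0.71 at a C1q limit of 0.25%), *Ccl8* (0.062 at a C1q limit of 1%) and *Mast4* (1.84 with fibroblast and keratinocyte RNA under 0.25%).

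Depth limits low genes. With 2234457 and 4160168 UMIs in the class II high macrophages, genes under 50 UMIs over both groups were not compared, and the class II low macrophages of the PBS library held 553179 UMIs in 96 cells.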

Other observations

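Genes for the uptake of dying cells differed among themselves in the class II high macrophages. *Mertk*, a receptor for this uptake, stood at 7.61 CPM (4.43 to 12.2) in the PBS and 16.4 CPM (12.7 to 20.7) in the DTX library, while its bridging ligands *Gas6* (38.0 and 6.25 CPM) and *Pros1* (29.98 and 12.3 CPM) were lower in the DTX library. In 5 cells lay 61.2% of the *Gas6* UMIs of the PBS library. Of 14 immediate early and heat shock genes, which respond to tissue handling, *Klf2* alone was past 2-fold, at 16.6 and 44.7 CPM. Of all genes, 1.54% were past 2-fold higher and 3.04% lower. The median of the list was 0.01, and the log2 ratio of *Klf2* was 1.38, or 0.52 with the rule applied anew to thinned cells. Of 5 measured cell cycle genes none was past 2-fold, and the list summed to 352 and 364 CPM against 3387 and 3858 CPM in T and NK cells.

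Lists of other cell types were summed in the class II high macrophages. Type 2 dendritic cell genes summed to 594 and 312 CPM, with a UMI in 63.2% and 49.8% of the cells, against 541 and 671 CPM in T and NK cells. This list holds *Klrd1*, a gene of NK cells, so T and NK cells do not give its level of free RNA. In the DTX library they had no UMI of *Cd209a* or *Mgl2*. Genes that T and NK cells transcribe themselves were not looked for in the other lists. Mature dendritic cell genes summed to 157 and 94.9 CPM against 111 and 186 CPM. Type 1 dendritic cell genes summed to 184 and 168 CPM against 574 and 690 CPM in T and NK cells, endothelial genes to 27.3 and 31.01 CPM, and B and plasma cell genes to 38.0 and 28.4 CPM. Neutrophil genes summed to 136 and 534 CPM, against 70.1 and 383 CPM in T and NK cells, and mast cell genes to 9.40 and 59.6 CPM, from 18 and 21 cells.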
